A study of Homo sapiens and Mus musculus with 21 samples.

Results

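The genes described here are 31 direct transcriptional targets of p53, listed by name from knowledge of the p53 pathway, by a rule that uses no measured value, though with earlier results of these data known. They were read in 2 bulk RNA tables, a list of RNA immunoprecipitation (RIP) peaks and 2 single-cell libraries of a study of DHX15, a DEAH-box RNA helicase of splicing and ribosome assembly. Of the 31 genes, 27 were among the 19848 genes of the knockdown table (TNFRSF10A, GDF15, SPATA18 and PLK2 were not) and 28 among the 23037 genes of the ciclopirox table (TIGAR, SPATA18 and PLK2 were not). In the mouse matrices 28 had a title-case symbol, the others being Tp53inp1, Tnfrsf10a and Tp53i3. Mouse Trp53inp1 was found under its own symbol and is given apart.

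The human cell line CUTLL1 was established from a T-cell acute lymphoblastic leukemia. It carried a lentiviral control hairpin against GFP (shGFP) or 1 of 2 hairpins against DHX15 (shDHX15-1 and shDHX15-2), with 3 libraries each, or was treated with the solvent DMSO or with 5 µM ciclopirox, an antifungal drug that chelates iron, also with 3 libraries each. Both hairpins are compared with the same shGFP libraries, and ciclopirox has DMSO controls of its own. The dose is the one in the name of the authors' comparison, and no source used here gives the hours of infection or of treatment. The RIP libraries (2 with DHX15 antibody, 1 with IgG and 1 input) stand behind 1 peak list made by the authors. The mice were 6 weeks old, with 1 thymus library from control animals with a floxed gene (DHX15-flox) and 1 from knockout animals (DHX15-KO, here KO); no source used here names the Cre driver or says how many mice were pooled. Whether the bulk replicates were separate cultures is not stated either, so their p-values reflect only how far these libraries spread, and that spread may be technical. In these bulk samples fewer cells with an RNA and less RNA per cell cannot be told apart.

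The protein p53 is a transcription factor that is made continuously and destroyed by the ubiquitin ligase MDM2, so that it builds up only when this destruction is blocked by DNA damage, ribosome assembly stress or other signals. It then binds response elements made of 2 half-sites and switches on genes that halt the cell cycle, repair DNA, retune metabolism or kill the cell, and also genes such as MDM2 and PPM1D that shut it down again. Thymocytes are known for a readily triggered p53 death response. Several of the targets answer to other factors too: BTG2 is an immediate early gene, and TNFRSF10B is also switched on by the stress factor CHOP.

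Response elements are the sequences through which p53 acts, so the stretches most like one are shown for the 5 members whose promoter windows held a match with at most 2 mismatches. RefSeq promoter windows (GRCh38.p14, from 250 bases before to 50 after a start site) were present for 24 of the 31 genes and were searched for the p53 response element, 2 half-sites of 10 bases that are the same on both strands, with the core C and G of each half-site required and 0 to 13 bases between them. The half-sites are in capitals.
AEN: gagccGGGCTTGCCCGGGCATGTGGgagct
DDB2: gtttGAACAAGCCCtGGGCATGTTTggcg
FAS: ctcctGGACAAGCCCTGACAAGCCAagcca
FDXR: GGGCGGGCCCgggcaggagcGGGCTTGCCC
MDM2: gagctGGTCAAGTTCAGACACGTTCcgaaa
The AEN stretch lies at chr15:88621301-88621330 (plus strand), the DDB2 stretch at chr11:47214975-47215003 (plus), the FAS stretch at chr10:88991304-88991333 (plus), the FDXR stretch at chr17:74872996-74873025 (minus) and the MDM2 stretch at chr12:68808918-68808947 (plus). DDB2 matched with 0 mismatches, one of 10 such genes among the 27305 with a window (0.0366%). At most 2 mismatches were found for 5 of 24 members (20.8%) and for 989 of 27305 genes (3.62%), and at most 3 for 11 members (45.8%) and 4172 genes (15.3%). A match is a description of letters, and many p53 elements lie in introns outside these windows.

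Both hairpins lowered the targeted gene: DHX15 stood at 42.8, 44.1 and 43.2 RPKM with shGFP, 17.1, 17.3 and 16.5 with shDHX15-1 and 16.1, 16.5 and 16.8 with shDHX15-2. With ciclopirox DHX15 also fell, from 15832 ± 1171 (SD, n = 3) to 9467 ± 661 normalised counts. The library totals behind the RPKM values (reads per kilobase of gene, scaled to the library total) were 59702150 to 62633707 reads, and the ciclopirox libraries held 32451469 to 37177509 reads in genes, so that counting error was small for all but the lowest members. CD3D and CD3E, genes of the T cell receptor complex, were at 135 to 312 RPKM in the shRNA libraries, while the pre-T receptor gene PTCRA was at 0 to 18.9 normalised counts in the ciclopirox libraries.

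Ciclopirox and DHX15 knockdown gave different pictures of these targets. With ciclopirox 21 of the 27 members tested rose and 0 fell, against 23.5% of all 16825 genes tested that rose and 25.0% that fell, and 16 of them rose at least 2-fold, against 9.69% of all genes. EDA2R, counted in both, was at 0 in all DMSO libraries. It reached the minimum of 10 normalised counts only in the ciclopirox libraries, so it could not have been called lower. The median log2 fold change of the members was 1.23, against −0.02 over all genes. With shDHX15-1 12 of 26 members rose and 11 fell (45.4% and 28.9% of all 15022 genes), with a median of 0.03 against 0.09. With shDHX15-2 8 rose and 13 fell (35.6% and 30.1%), with a median of −0.13 against 0.03. For the mean of both hairpins 8 rose and 12 fell (42.6% and 30.2%). In the same direction with both hairpins 7 rose and 9 fell (28.8% and 20.4%). Calls were made with limma at a Benjamini-Hochberg adjusted p under 0.05 over all genes of the table, on log2(RPKM + 1) or log2(normalised count + 1), a scale that understates changes of low genes. After median-centring, which moved the median of all genes from 0.09 to −0.02 with shDHX15-1, 33.7% of genes rose and 39.5% fell there, and 8 members rose and 13 fell. Averaged over the hairpins, it gave 8 members higher and 14 lower, against 33.1% and 38.5% of genes. The plot of fold changes by role shows the contrast.

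**Figure D1:**
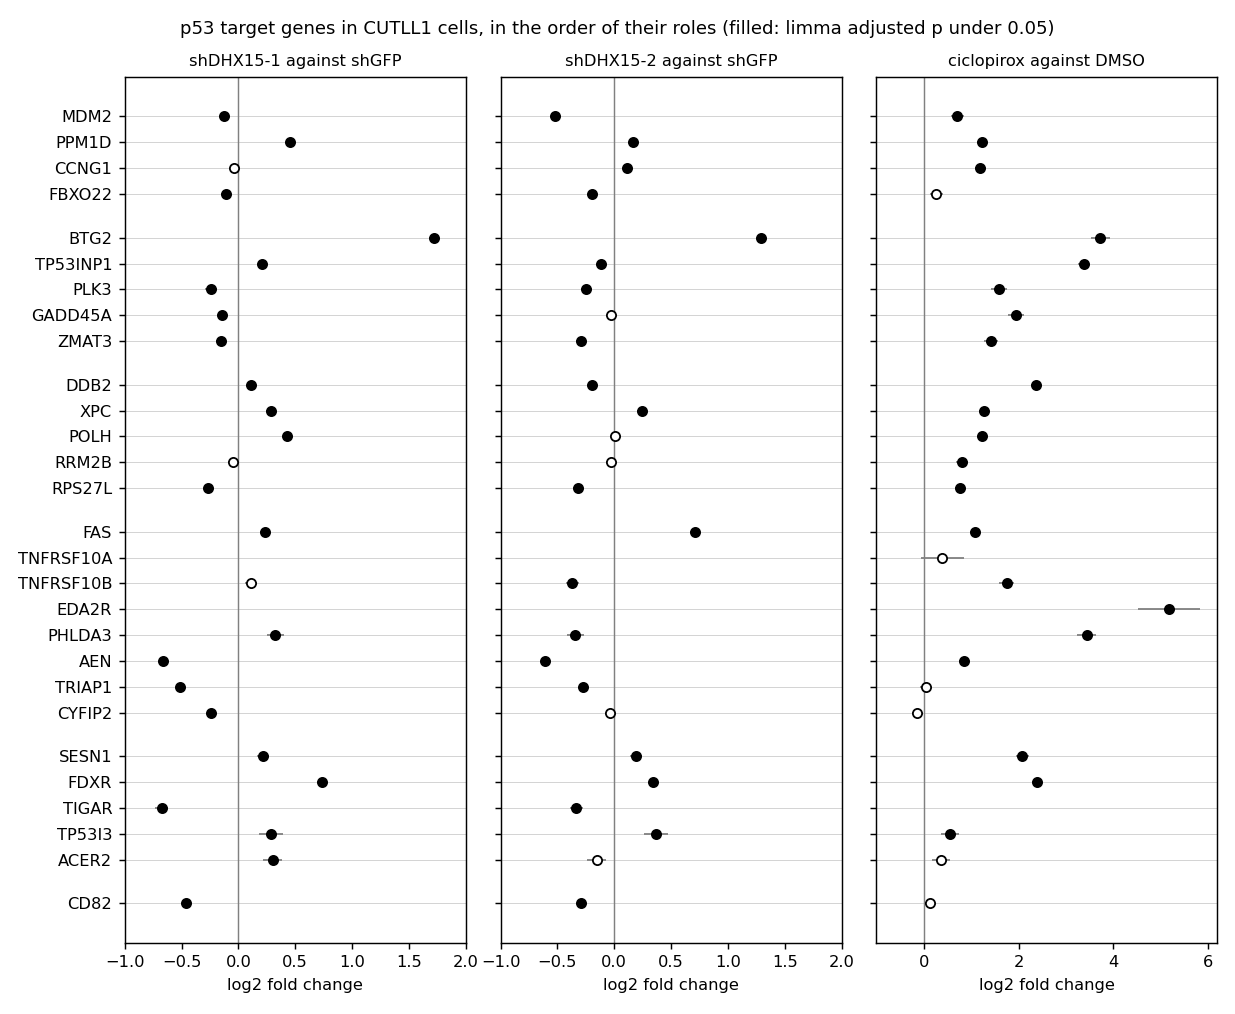
Log2 fold change of each tested member (horizontal axes, bars are standard errors) with shDHX15-1, shDHX15-2 and ciclopirox, filled where limma's adjusted p was under 0.05; the ciclopirox panel has a wider axis. With ciclopirox 21 of 27 members lie right of 0 and are filled, while with the hairpins filled points lie on both sides. The EDA2R point rests on the 1 added before the log2, because all DMSO libraries were at 0 and its fold cannot be measured.

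Of the 4 members that restrain p53, MDM2 fell and PPM1D rose with both hairpins, and both rose with ciclopirox. MDM2, the ubiquitin ligase of p53, stood at 11.3, 12.3 and 11.9 RPKM with shGFP, 10.7, 10.9 and 10.8 with shDHX15-1 and 7.78, 8.08 and 8.08 with shDHX15-2. All 3 shDHX15-2 libraries lay below all shDHX15-1 libraries, and these lay below shGFP (log2 fold change −0.12 and −0.52, SE 0.0315, limma adjusted p = 0.00569 and 1.24e-06). In the drug experiment MDM2 was at 3476, 4220 and 4576 normalised counts with DMSO and 7122, 5520 and 7405 with ciclopirox, without overlap (0.71, SE 0.134, limma adjusted p = 0.00136). PPM1D, the phosphatase WIP1 that strips activating phosphates from p53, was at 6.88, 6.95 and 7.25 RPKM with shGFP, 10.2, 9.56 and 10.2 with shDHX15-1 and 7.98, 8.16 and 7.86 with shDHX15-2. It rose with both hairpins, more with shDHX15-1 (0.45) than with shDHX15-2 (0.17; difference −0.28, limma adjusted p = 7.70e-05). With the drug its values were 1326, 1504 and 1456 normalised counts with DMSO and 3472, 3058 and 3530 with ciclopirox, a rise of 1.23 (SE 0.101).

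CCNG1, which encodes the MDM2 partner cyclin G1, was at 28, 29.4 and 27.8 RPKM with shGFP, 26.9, 27.9 and 27.7 with shDHX15-1 and 31, 30.4 and 30.7 with shDHX15-2. It was called with shDHX15-2 alone (0.11, limma adjusted p = 0.00438; −0.04 and 0.152 with shDHX15-1). Ciclopirox raised it by 1.19 (SE 0.112), with 2186, 2402 and 2176 normalised counts with DMSO and 5649, 4390 and 5501 with ciclopirox. FBXO22, a ubiquitin ligase subunit, fell with both hairpins (−0.11 and −0.19) and was not called with ciclopirox (0.27, limma adjusted p = 0.109). Its shDHX15-1 call (adjusted p = 0.0437) was lost under 10 alternatives.

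BTG2 was the member that rose most in every hairpin comparison with shGFP. This antiproliferative gene of the BTG/TOB family was at 3.22, 3.61 and 3.15 RPKM with shGFP, 13.2, 13 and 13.5 with shDHX15-1 and 9.51, 9.85 and 9.43 with shDHX15-2. The 3 groups did not overlap, shDHX15-1 being the highest (log2 fold change 1.72 and 1.29, SE 0.041, limma adjusted p = 2.90e-09 and 2.98e-08; between hairpins −0.43, adjusted p = 2.88e-05). It was the 1 member called with a change of 2-fold or more with each hairpin. In the drug experiment BTG2 was at 77.2, 55.6 and 48.1 normalised counts with DMSO and 733, 850.0 and 814 with ciclopirox, with the lowest ciclopirox library far above all DMSO libraries (3.73, SE 0.192, limma adjusted p = 2.78e-07).

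The other genes of growth arrest and stress signalling rose with ciclopirox without rising with both hairpins. TP53INP1, whose protein helps p53 reach its death targets, was at 339, 394 and 349 normalised counts with DMSO and 3404, 3572 and 4316 with ciclopirox. Its rise of 3.38 (SE 0.122, limma adjusted p = 2.78e-08) stood beside opposite calls with the hairpins, 0.21 with shDHX15-1 and −0.12 with shDHX15-2, and the hairpins differed from each other by −0.32 (adjusted p = 1.93e-05). The RPKM values behind these were 7.78, 7.59 and 7.92 RPKM with shGFP, 9.25, 8.94 and 9.16 with shDHX15-1 and 7.32, 6.9 and 7.03 with shDHX15-2.

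GADD45A, a stress sensor that binds PCNA and CDK1, was at 134, 199 and 160.5 normalised counts with DMSO and 676, 644 and 579 with ciclopirox, a rise of 1.95 (SE 0.167). With the hairpins it was at 2.99, 3.01 and 2.91 RPKM with shGFP, 2.53, 2.63 and 2.6 with shDHX15-1 and 2.88, 2.79 and 3.0 with shDHX15-2, lower with shDHX15-1 (−0.15, limma adjusted p = 0.00421) and not called with shDHX15-2 (−0.03). PLK3, a stress-responsive polo-like kinase, was at 429.5, 322 and 269.9 normalised counts with DMSO and 1005, 1139 and 896 with ciclopirox. Its groups did not overlap there (1.59, SE 0.173), whereas it fell with both hairpins (−0.24 and −0.24), from 3.21, 3.01 and 2.83 RPKM to 2.49, 2.47 and 2.22 with shDHX15-1 and 2.41, 2.49 and 2.27 with shDHX15-2. ZMAT3, an RNA-binding splicing regulator, went the same way, with 1168, 1578 and 1708 normalised counts with DMSO and 3752, 3518 and 4512 with ciclopirox (1.41, SE 0.148). On knockdown it fell from 6.58, 6.81 and 6.97 RPKM to 5.89, 6.37 and 5.7 with shDHX15-1 and 5.25, 5.29 and 5.55 with shDHX15-2 (−0.16 and −0.29).

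**Figure D2:**
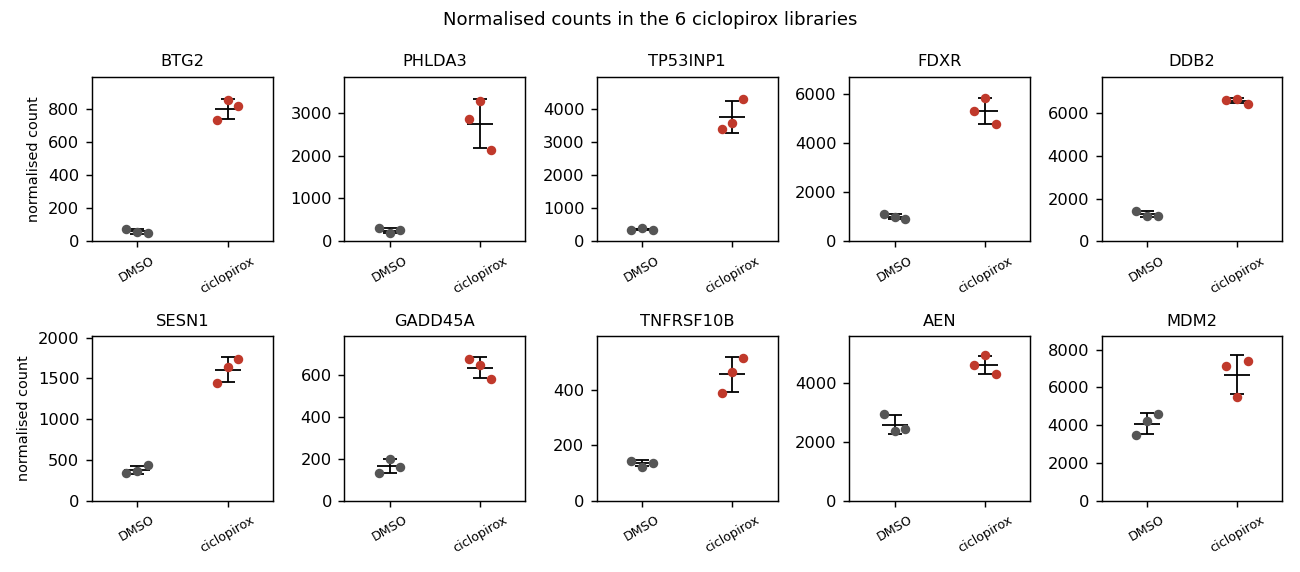
Normalised counts (vertical axes from 0) of 10 members in the 3 DMSO and 3 ciclopirox libraries, 1 point a library, with the mean and SD in black. In each of the 10 panels all ciclopirox libraries lie above all DMSO libraries, by most in BTG2, PHLDA3 and TP53INP1 and by less in MDM2 and AEN. All 10 are members called higher, so they do not stand for the whole set. Of 28 members listed, 21 lay wholly above DMSO and 7 overlapped it. The share of all genes without overlap was not counted.

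All 5 genes of DNA repair and nucleotide supply rose with ciclopirox, against 23.5% of all genes. DDB2, the damage-binding subunit whose promoter holds the complete element shown above, was at 1441, 1206 and 1180 normalised counts with DMSO and 6640, 6697 and 6455 with ciclopirox (2.38, SE 0.101, limma adjusted p = 9.50e-08). With the hairpins it was at 15, 15.3 and 14.1 RPKM with shGFP, 15.8, 16.2 and 16.1 with shDHX15-1 and 12.7, 13.3 and 12.4 with shDHX15-2, with a log2 fold change of 0.11 for shDHX15-1 and −0.20 for shDHX15-2 (limma adjusted p = 0.0186 and 9.87e-04). The call with shDHX15-1 was lost under 5 of the alternatives tried. XPC, which recognises bulky lesions with the DDB2 complex, was at 1245, 1101 and 1143 normalised counts with DMSO and 2770, 2821 and 2807 with ciclopirox and rose by 1.27 (SE 0.095). It also rose with both hairpins (0.29 and 0.24), from 6.58, 7.05 and 7.32 RPKM to 8.37, 8.66 and 9.24 with shDHX15-1 and 8.63, 8.35 and 8.29 with shDHX15-2.

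POLH, a DNA polymerase that copies past ultraviolet damage, was at 1413, 1460 and 1525 normalised counts with DMSO and 3447, 3312 and 3604 with ciclopirox (1.24, SE 0.0914). Among the shRNA libraries it stood apart in shDHX15-1 (11.7, 11.7 and 11.7 RPKM with shGFP, 16.3, 16.3 and 15.6 with shDHX15-1 and 11.3, 12.2 and 11.7 with shDHX15-2), so that it was called with shDHX15-1 (0.43) and not with shDHX15-2 (0.01, limma adjusted p = 0.885), a difference that passed the direct test between hairpins (−0.42, adjusted p = 5.12e-06). RRM2B, the p53-regulated subunit of ribonucleotide reductase, rose by 0.81 with ciclopirox and was called with neither hairpin (−0.05 and −0.03). RPS27L, a ribosomal protein paralogue, rose by 0.77 with the drug and fell with both hairpins (−0.26 and −0.32); it is close in sequence to RPS27, and how reads shared by the pair were counted is not given.

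Of the 8 death receptor and cell death genes, 5 rose with ciclopirox, against 23.5% of all genes. EDA2R, 1 of the 5, reached the minimum of 10 normalised counts only in the ciclopirox libraries. With both hairpins FAS alone rose of 6 tested and AEN and TRIAP1 fell, against 28.8% and 20.4% of all genes. FAS, the receptor of FAS ligand, was at 5.5, 5.68 and 5.64 RPKM with shGFP, 6.84, 6.32 and 7.14 with shDHX15-1 and 9.74, 9.52 and 10.1 with shDHX15-2. Its order was the reverse of that of BTG2, with shDHX15-2 above shDHX15-1 and both above shGFP (0.23 and 0.71, SE 0.0413, limma adjusted p = 7.20e-04 and 9.64e-07; between hairpins 0.48, adjusted p = 1.52e-05). With the drug FAS was at 696, 771 and 818 normalised counts with DMSO and 1548, 1519 and 1768 with ciclopirox, without overlap (1.08, SE 0.113). TNFRSF10B, the TRAIL receptor DR5, was at 145, 123 and 136 normalised counts with DMSO and 391, 464 and 516 with ciclopirox (1.75, SE 0.161, limma adjusted p = 1.18e-05). In the shRNA libraries its level was low, at 1.07, 1.02 and 1.18 RPKM with shGFP, 1.21, 1.37 and 1.19 with shDHX15-1 and 0.575, 0.687 and 0.594 with shDHX15-2, with a fall for shDHX15-2 (−0.37) and no call for shDHX15-1 (0.11, adjusted p = 0.104).

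EDA2R, a receptor of ectodysplasin A2, was at 0 in all 3 DMSO libraries and at 38.2, 44.4 and 25.9 normalised counts with ciclopirox, at least 11.2-fold higher than 3 reads per library would give. In the shRNA libraries it was at 0 to 0.0463 RPKM and was not tested. Setting EDA2R at its bound left the members' median at 1.23. TNFRSF10A, the other TRAIL receptor, was not called (0.39, SE 0.46).

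PHLDA3, an inhibitor of AKT signalling, was at 312, 186 and 262 normalised counts with DMSO and 2855, 3259 and 2122 with ciclopirox, one of the larger rises (3.44, SE 0.201, limma adjusted p = 6.33e-07). The hairpins moved it in opposite directions (3.98, 3.41 and 3.46 RPKM with shGFP, 4.86, 4.23 and 5.3 with shDHX15-1 and 2.81, 2.55 and 2.56 with shDHX15-2; 0.33 and −0.34, adjusted p = 0.00309 and 0.0029), and the direct comparison gave −0.67 (adjusted p = 6.40e-05). AEN, a p53-induced nuclease of apoptotic DNA breakdown, went in opposite directions in the experiments. It was at 8.18, 7.83 and 8.08 RPKM with shGFP, 4.61, 4.84 and 4.66 with shDHX15-1 and 5.0, 4.97 and 4.76 with shDHX15-2, below shGFP in all 6 knockdown libraries (−0.66 and −0.61, SE 0.031, limma adjusted p = 1.35e-07 and 4.32e-07). In the drug experiment AEN was at 2951, 2369 and 2435 normalised counts with DMSO and 4608, 4938 and 4320 with ciclopirox and rose by 0.84 (SE 0.108, adjusted p = 1.05e-04). TRIAP1, an apoptosis inhibitor, fell with both hairpins (−0.52 and −0.27) and was not called with the drug (0.04). CYFIP2, a subunit of the WAVE actin regulator, was called with shDHX15-1 alone (−0.25).

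**Figure D3:**
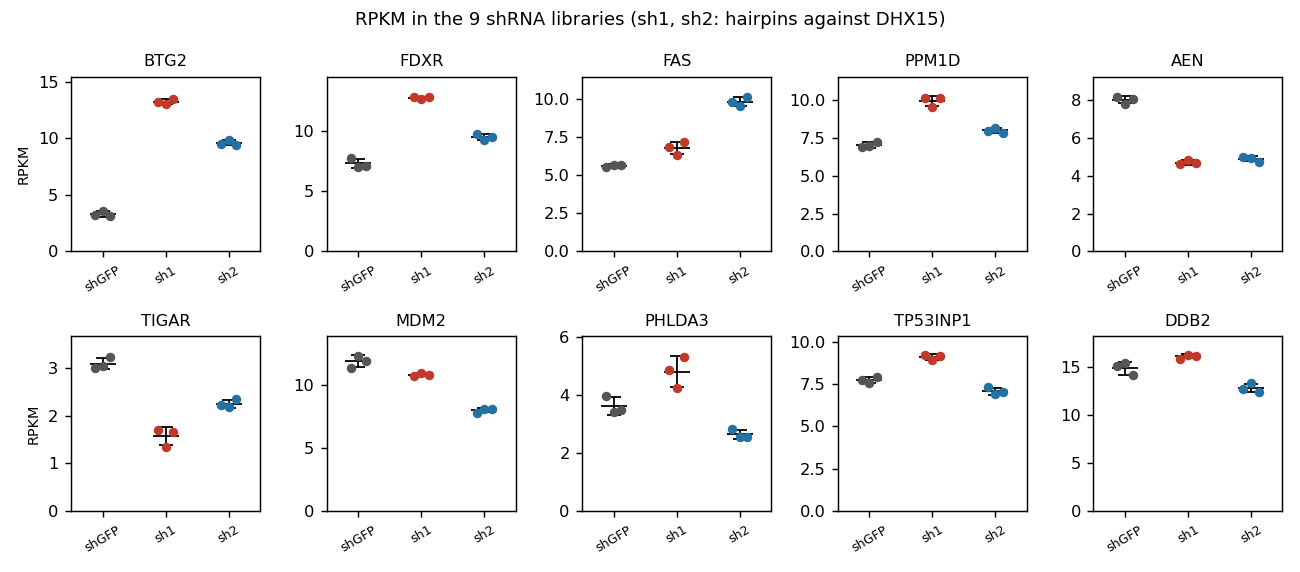
RPKM (vertical axes from 0) of 10 members in the 9 shRNA libraries, 1 point a library, with the mean and SD in black; sh1 and sh2 stand for shDHX15-1 and shDHX15-2. BTG2, FDXR, FAS and PPM1D lie above shGFP with both hairpins, AEN, TIGAR and MDM2 below it with both, and PHLDA3, TP53INP1 and DDB2 above it with shDHX15-1 and below it with shDHX15-2.

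Of the metabolic targets, FDXR, SESN1 and TP53I3 rose with both hairpins and with ciclopirox, while TIGAR fell with both hairpins. FDXR, the ferredoxin reductase of mitochondrial steroid and iron-sulphur metabolism, was at 7.75, 7.02 and 7.08 RPKM with shGFP, 12.8, 12.7 and 12.8 with shDHX15-1 and 9.76, 9.2 and 9.5 with shDHX15-2. All knockdown libraries lay above shGFP (0.73 and 0.34, SE 0.037, limma adjusted p = 2.16e-07 and 4.37e-05), and with the drug it was at 1120, 988 and 919 normalised counts with DMSO and 5300, 5813 and 4778 with ciclopirox (2.39, SE 0.112, adjusted p = 1.35e-07). SESN1, a sestrin that restrains mTORC1, was at 338, 369 and 432 normalised counts with DMSO and 1438, 1644 and 1737 with ciclopirox (2.08, SE 0.131), and it rose by 0.21 and 0.19 with the hairpins, from 3.22, 3.6 and 3.51 RPKM to 4.25, 4.43 and 3.79 with shDHX15-1 and 4.21, 4.06 and 3.97 with shDHX15-2. The shDHX15-1 call of SESN1 was lost under 2 alternatives and its shDHX15-2 call under 1. TP53I3, a quinone oxidoreductase also known as PIG3, rose by 0.28, 0.36 and 0.56 with shDHX15-1, shDHX15-2 and ciclopirox (limma adjusted p = 0.0366, 0.0139 and 0.0336). Its shDHX15-1 call was lost under 8 alternatives and its ciclopirox call under 7.

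TIGAR, a phosphatase that lowers glycolytic flux, fell with both hairpins, from 3.0, 3.04 and 3.23 RPKM to 1.7, 1.34 and 1.66 with shDHX15-1 and 2.23, 2.17 and 2.34 with shDHX15-2 (−0.68 and −0.33, SE 0.0583, limma adjusted p = 6.37e-06 and 8.43e-04). The hairpins differed here as well, by 0.34. ACER2, an alkaline ceramidase, was called with shDHX15-1 alone (0.30) and not with ciclopirox (0.37). Of the secreted and surface proteins, the tetraspanin gene CD82 fell with both hairpins (−0.47 and −0.29) and was not called with the drug (0.13), and GDF15, a stress cytokine, stayed under the filter at 0, 0.994 and 8.18 normalised counts with DMSO and 7.64, 11.3 and 18.2 with ciclopirox.

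Between the hairpins, 7 of the 26 members were higher with shDHX15-2 and 11 lower (23.2% and 37.9% of all genes). After median-centring 8 were higher and 10 lower, against 32.4% and 27.5% of all genes. Their DHX15 levels differed by −0.04 (SE 0.0255, limma adjusted p = 0.20). The hairpins had opposite calls for DDB2, PHLDA3 and TP53INP1, each of which was higher with shDHX15-1. The call against shGFP with shDHX15-1 was lost under 5 alternatives for DDB2 and under 1 for PHLDA3.

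Set side by side, 25 members were tested in both experiments, which share no control libraries. Of these, 7 rose with both hairpins and with ciclopirox (BTG2, FAS, FDXR, PPM1D, SESN1, TP53I3 and XPC), 28% of the members against 11.7% of the 10659 genes tested in both tables. Among them, calls of SESN1 and TP53I3 were lost under some alternatives. A fall with both hairpins and a rise with ciclopirox was found for 5 (AEN, MDM2, PLK3, RPS27L and ZMAT3), 20% against 1.68%. A fall with both hairpins and no call with the drug was found for CD82, FBXO22 and TRIAP1 (12% against 7.54%), FBXO22 by the unstable shDHX15-1 call given above. The 3 members with opposite hairpin calls, DDB2, PHLDA3 and TP53INP1, also rose with ciclopirox (12% against 1.54%). For DDB2 and PHLDA3 this rests on the shDHX15-1 calls that some alternatives lost. Ciclopirox alone raised 21 of 27 members (23.5% of all genes). Both hairpins alone raised 7 of 26 (28.8%) and lowered 9 (20.4%). Each joint share that counts a ciclopirox rise thus contains the members' high ciclopirox share. By itself it does not show that the 2 experiments go together.

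Further genes of the pathway were counted from lists that are not members. Of 21 further p53 targets tested, 17 rose with ciclopirox and 0 fell (median 1.82), led by BBC3, a BH3-only death gene, by TNFRSF10D, a TRAIL decoy receptor, and by the cell cycle inhibitor CDKN1A (4.22). BBC3 was at 29, 19.9 and 19.4 normalised counts with DMSO and 1953, 2418 and 1617 with ciclopirox (6.40). TNFRSF10D was at 0, 0 and 1.02 normalised counts with DMSO and 29.6, 69 and 34.5 with ciclopirox. TNFRSF10D and PLXNB2 (6.03, 5.96 and 4.09 with DMSO) reached the minimum of 10 only in the ciclopirox libraries. Neither could therefore have been called lower. The share of all genes was 23.5% rising and 25.0% falling. With both hairpins 5 of 16 rose and 4 fell, shares near the 28.8% and 20.4% of all genes. CDKN1A was at 5.33, 5.46 and 5.4 RPKM with shGFP, 8.69, 8.46 and 8.51 with shDHX15-1 and 5.52, 5.42 and 5.19 with shDHX15-2, raised by shDHX15-1 (0.58) and not called with shDHX15-2 (−0.01, limma adjusted p = 0.878). Of the 14 genes in a list of the p53 regulatory circuit, 3 rose and 3 fell with both hairpins (28.8% and 20.4% of all genes), and 2 rose and 3 fell with ciclopirox (23.5% and 25.0%). MDM4, which restrains p53 together with MDM2, rose throughout (0.73, 0.49 and 0.84). USP7, which removes ubiquitin from MDM2 and p53, fell throughout (−0.48, −0.25 and −0.82).

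Among 16 genes known to be repressed through p53, CDKN1A and the DREAM complex, 10 fell with ciclopirox (CDC20 −2.95, PLK1 −2.70 and CCNB1 −2.36) and 4 rose (MYBL2 1.17, RRM2 1.16, CDC25C 0.45 and FOXM1 0.27). With both hairpins 8 fell and 3 rose. Over all genes 25.0% fell and 23.5% rose with ciclopirox, and 20.4% fell and 28.8% rose with both hairpins. In a list of the stress factors ATF4 and CHOP (gene DDIT3) and their targets, 9 of 10 genes tested rose with ciclopirox and 0 fell. The rises were led by ATF3 at 3.82 and CHAC1 at 3.57, and ATF4 itself was not called (0.05, limma adjusted p = 0.733). With both hairpins 3 of 11 rose, DDIT3 among them, and 4 fell, ATF4 among them. SESN2 (2.69 with ciclopirox) is counted both here and among the further p53 targets. TNFRSF10B is a CHOP target as well, and the part of that pathway in its rise was not tested.

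The RIP libraries address which transcripts DHX15 binds. Of the 31 members 5 held a peak, 16.1%, against 19.3% of 14073 genes of the knockdown table with a RefSeq span, a share near the background. The 31 include TNFRSF10A, GDF15, SPATA18 and PLK2, which are absent from that table and held no peak, so the sets differ in this. They also differ in span, with a median of 34461 bases for members and 23809 for all genes. A longer span has more room for a peak, and the shares were not matched for it. The 6 peaks lay in DDB2 (chr11:47214589-47216954, plus strand), XPC (chr3:14146121-14147326, minus, and chr3:14152418-14152679, plus), POLH (chr6:43614320-43614370, plus), FDXR (chr17:74863124-74864560, minus) and CD82 (chr11:44604632-44604682, minus). The authors' fold enrichments were 1.53 for DDB2, 1.605 and 1.52 for XPC, 1.88 for POLH, 1.54 for FDXR and 1.96 for CD82, and none reached 2, where the median of all 4499 peaks was 1.65. Whether a peak is exonic or intronic was not assigned here. The CD82 peak and the second XPC peak are on the strand opposite to the gene. The DDB2 peak begins 135 bases after the start of the gene's span, is 2366 bases long and holds the element shown above, which lies just past a start site. POLH's peak of 51 bases lies 38135 bases into the gene. All but CD82 rose with ciclopirox, and their calls with both hairpins were mixed: XPC and FDXR rose, CD82 fell, and POLH and DDB2 were called in neither direction by both. CDKN1A and BAX, which are not members, also held a peak each. Build GRCh38 was inferred for the peaks, since RefSeq spans contained 4150 of them against 2771 and 2801 after a shift of the peaks to either side.

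In the thymus the summed UMI counts of 8888 control and 7397 KO cells were compared as CPM, counts scaled to the UMI total of the cells summed. With 1 library a group there is no replicate check, and intervals cover counting error only. The libraries differed in depth (medians of 3695 and 7074 UMIs per cell), shared 17 barcodes and differed strongly in which cells they held, so that levels over all cells mix the makeup of the library with expression. Over all cells 2 of 25 members with at least 20 UMIs in both libraries together were at least 1.5-fold higher in the KO and 7 at least 1.5-fold lower, against 16.9% and 16.8% of 14089 genes. The higher ones were Cd82 and Phlda3. The lower ones were Btg2, Fas, Gadd45a, Mdm2, Plk3, Rrm2b and Sesn1. Fas, for example, was at 104 CPM in the control and 50.3 in the KO (ratio 0.483, 95% interval 0.463 to 0.503), but within resting DP-like cells the same ratio was 0.977 (0.925 to 1.03). Btg2 went from a ratio of 0.584 over all cells to 0.923 (0.905 to 0.942) within resting DP-like cells. Sesn1 was at 1.02 (0.948 to 1.095) there. Mdm2 (0.828, 0.771 to 0.889), Rrm2b (0.719, 0.612 to 0.842) and Gadd45a (0.444, 0.374 to 0.524) stayed below 1 there. Plk3 had only 5 and 3 UMIs in these cells. The part of library makeup in the lower levels was not tested.

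Resting DP-like cells, which resemble CD4 and CD8 double positive thymocytes, numbered 5492 in the control and 2679 in the KO. In each of their 6 clusters all 8 resting DP markers were at least 1.5-fold above the other cells, but a marker was among the 10 leading genes of clusters 3 and 9 alone. Cluster 18 was the lowest for 7 of the 8 markers, with Cd8a at 1312, Cd4 at 441 and Rag1 at 1489 CPM, and the delta chain segment Trdv1 was among its leading genes. The DN2-3-like cluster had Cd8a at 59 and Cd4 at 25.1 CPM. Different clusters held most of them in the libraries: clusters 0, 1 and 3 held 1647, 1172 and 2097 control cells but 61, 193 and 109 KO cells, while clusters 2 and 18 held 1250 and 989 KO cells but 91 and 58 control cells. The members and Dhx15 were left out of the genes used for clustering. Dhx15 itself was at 173 CPM in the control and 112 in the KO in them (ratio 0.646, 0.606 to 0.689). There 4 of 22 members with at least 20 UMIs, of 28 listed, were at least 1.5-fold higher (14.4% of 11667 genes) and 1 was lower (10.6%), with a median log2 ratio of 0.09 against −0.02 over all genes. Phlda3 was at 3.81 CPM in the control and 10.8 in the KO (ratio 2.83, 2.1 to 3.83), Zmat3 at 22.5 CPM in the control and 41.7 in the KO (ratio 1.86, 1.63 to 2.12), Cd82 at 13.1 CPM in the control and 20.4 in the KO (ratio 1.55, 1.29 to 1.86) and Aen at 22.5 CPM in the control and 34 in the KO (ratio 1.51, 1.31 to 1.73). Gadd45a was lower, at 34 CPM in the control and 15.1 in the KO (ratio 0.444, 0.374 to 0.524). Mdm2 (0.828) and Trp53inp1 (1.09) were within 1.5-fold. Bbc3, not a member, was higher as well (46.7 CPM in the control and 78.8 in the KO, ratio 1.69, 1.53 to 1.85), and it was a leading gene of cluster 2. Cdkn1a rested on few UMIs (15 and 73 UMIs, ratio 7.58, 4.31 to 14.2).

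**Figure D4:**
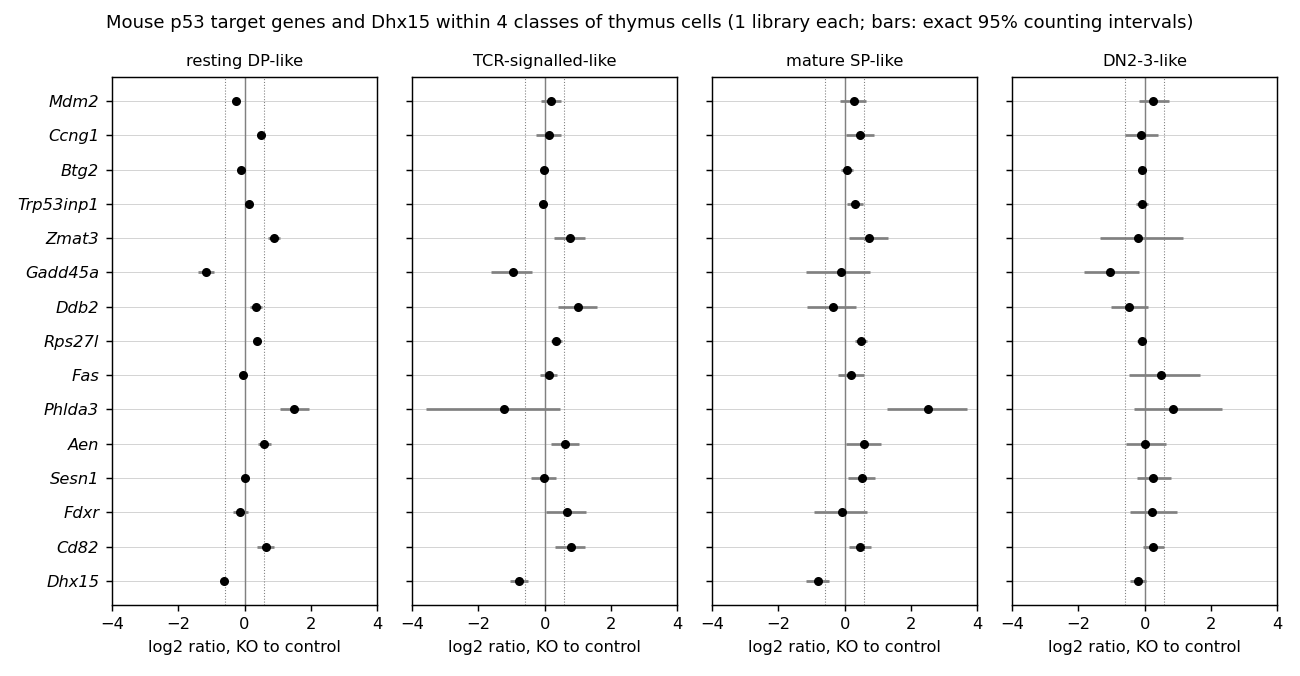
Log2 ratio of KO to control CPM (horizontal axes, bars are exact 95% counting intervals) for 13 members, Trp53inp1 and Dhx15 within 4 classes of thymus cells, 1 library a group; dotted lines mark 1.5-fold. Zmat3 and Aen lie right of 0 in the resting DP-like, TCR-signalled-like and mature SP-like classes and near 0 in the DN2-3-like class, while Dhx15 lies left of 0 in all 4, its interval reaching 0 in the DN2-3-like class.

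In TCR-signalled-like cells (1114 control and 242 KO cells) 5 of 21 members were at least 1.5-fold higher (10.1% of 9552 genes) and 3 lower (12.3%). Zmat3 (ratio 1.69, 1.21 to 2.32), Aen (1.54, 1.14 to 2.05) and Cd82 (1.73, 1.25 to 2.35) recurred, Ddb2 was at 16.6 CPM in the control and 33.5 in the KO (2.02, 1.33 to 3.01) and Fdxr at a ratio of 1.58 (1.03 to 2.38). Gadd45a was lower here too (0.513, 0.328 to 0.771), whereas the intervals of Rrm2b (0.638, 0.336 to 1.12) and Phlda3 (0.427, 0.0836 to 1.37, on 31 and 3 UMIs) held 1, and with coarser clusters the log2 ratio of Phlda3 was 0.23. In mature SP-like cells (1092 and 142) 3 of 22 were higher (13.2% of 10001 genes) and 1 lower (10.1%), again Zmat3 (1.68, 1.09 to 2.5) and Aen (1.51, 1.04 to 2.15), with Phlda3 (5.73, 2.44 to 12.8, on 18 and 11 UMIs). The lower gene, Plk3, had 44 UMIs in the control and 3 in the KO, and its interval (0.127 to 1.99) held 1. In DN2-3-like cells (98 and 1072) 1 of 21 was higher (9.55% of 10576 genes) and 2 lower (6.21%), and Zmat3 (0.866, 0.394 to 2.25) and Aen (1.02, 0.683 to 1.57) were not among them. Those past the fold were Phlda3 (1.8, 0.80 to 5.03), Gadd45a (0.487, 0.28 to 0.897) and Polh (0.464, 0.20 to 1.25). Dhx15 in that class had a ratio of 0.863 (0.73 to 1.02), an interval that holds 1.

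Cells of the DN2-3-like class made up 1.1% of control and 14.5% of KO cells, and clusters given no class 12.3% and 44.1%. RNA free in the droplets comes from all cells of a library and was not measured here. Cdkn1a was at 96.3 and 93 CPM in DN2-3-like cells, far above the resting DP-like cells, and Cd82 at 80.9 and 96.9. Zmat3 was lower there, at 6.36 and 5.5 CPM, than in the resting DP-like cells of either library. Aen was at 24.5 and 25. Over all cells Aen was at 25.8 CPM in the control and 36.8 in the KO, beside 34 in resting DP-like KO cells. Zmat3 was at 16.6 and 12.7 over all cells. Levels in the clusters given no class are not shown here. The part of free RNA in the differences of Cdkn1a, Cd82, Zmat3, Aen and the other members was not tested.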

How the data were processed

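RNA was measured by poly(A) RNA sequencing in CUTLL1 cells, by DHX15 RIP sequencing and by single-cell sequencing of thymus. Per the submitters' processing notes, Cell Ranger 6.0.2, Scanpy 1.7.1, DESeq2 1.32.0, FastQC 0.11.9 and STAR (2.7.5c and 2.4.1.7) were used on builds hg19, hg38 and mm10, with no role given; no source used here names the peak caller. The knockdown values are RPKM, computed by the authors, in 1 table. The ciclopirox table holds normalised counts, a signal of gene counts the authors divided by a size factor per library, with the authors' deposited log2 fold changes, test scores and p-values, which were not used as results because their p-values cover 3 conditions. The peak list holds the authors' fold enrichment ratio, score and p-value per peak. The thymus matrices hold UMI counts, deposited unnormalised.

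The 31 members and all gene lists were chosen with earlier results of these data known. Groups were taken from the labels. Genes with RPKM of at least 1, or normalised counts of at least 10, in at least 3 libraries were kept, and log2(value + 1) was fitted with limma 3.58.1 (R 4.3.3; empirical Bayes with trend, two-sided, Benjamini-Hochberg over all genes kept, call at an adjusted p under 0.05), with the 9 shRNA libraries in 1 fit and the 6 ciclopirox libraries in another. No library was dropped or imputed. Values per library are given for members called with ciclopirox at a log2 fold change of at least 1 in size, or with both hairpins in 1 direction at 0.3 or more with each; MDM2 and the other members with values were named after these were seen, and other lists give up to 3 genes by size of change, beside single genes named for going against their list. Whole reads were recovered from both tables (19748 of 19848 genes within 0.001 of a read, the other 100 being at 0, and 100% of ciclopirox values within 0.01) for edgeR 4.0.16 and DESeq2 1.42.0 as alternatives. Peaks were matched to genes by position alone, a peak having to lie wholly inside the RefSeq span of the gene. Thymus cells with at least 500 UMIs, 250 genes and at most 10% mitochondrial UMIs were clustered with scanpy 1.11.5 on 1999 variable genes without the members; clusters were named from marker lists, doublets were kept, since Scrublet called 0 and 1, and ratios carry exact conditional binomial intervals. The fits and intervals were tested on simulated data. Other pseudocounts, filters, scalings, tools, left-out libraries, clusterings and folds were tried as alternatives.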

Additional observations from a re-analysis of the deposited data

How the results depend on the processing

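No called member changed direction in the bulk fits under any alternative tried. Of 1674 values of a member under an alternative, 46 lost the call, 22 gained one and 30 changed sign while called under neither. Without 1 replicate the ciclopirox median stayed at 1.16 to 1.26. The shDHX15-1 median of 0.03 turned to −0.0641 with DESeq2, −0.0564 with edgeR, −0.0746 when median-centred and −0.0328 when quantile normalised, and the median between hairpins to −0.0025, 0.0011, 0.0144 and 0.0569 in that order. The shDHX15-2 median was −0.21, −0.19 and −0.17 with the first 3, and that of the mean of both hairpins −0.11, −0.11, −0.11 and −0.0903 with all 4. Requiring a call and 2-fold left 1 member higher and 0 lower with shDHX15-1 (1.74% and 0.81% of all genes), shDHX15-2 (0.77% and 0.43%) and their mean (0.91% and 0.39%). Between hairpins it left 0 and 0 (0.23% and 0.21%). At 2-fold with shDHX15-1, edgeR and DESeq2 each gave 1 member lower, against 2.18% and 2.27% of all genes. Median-centring made 1 member, CYFIP2, lower with ciclopirox. With a fold enrichment of at least 2, 0 members held a RIP peak, against 3.56% of genes. The cause was not tested for any of these.

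Same-numbered libraries did not deviate together (r from −0.000609 to 0.0951 for the shRNA groups, and 0.105, −0.108 and 0.163 for ciclopirox), so numbers do not pair them. With the replicate block 21 members were higher and 0 lower with ciclopirox (median 1.23), 12 and 10 with shDHX15-1 (FBXO22 lost its call), 8 and 13 with shDHX15-2, and 8 and 10 for the mean.

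In the thymus a fold of 2 left 1 member higher and 2 lower over all cells, 1 higher in resting DP-like, 1 higher and 1 lower in TCR-signalled-like, 1 and 0 in mature SP-like, and 0 higher in DN2-3-like cells. Leaving mitochondrial, ribosomal and haemoglobin genes out of the total gave 4 higher and 4 lower over all cells. Clusters at a resolution of 0.5 gave 2 higher in DN2-3-like, 1 higher and 1 lower in TCR-signalled-like, and 2 lower in mature SP-like cells, and turned the log2 ratio of Phlda3 in TCR-signalled-like cells from −1.23 to 0.23. The cause was not tested. Removing doublets was not run, since Scrublet called 0 and 1. Depth limits the classes with few KO cells, as for Plk3 in mature SP-like cells (44 and 3 UMIs).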

Other observations

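Mouse p53 targets that are not members were read in the same thymus cells. Within resting DP-like cells Pmaip1, which encodes the BH3-only protein NOXA, was at 1.29 CPM in the control and 4.09 in the KO (ratio 3.18, 24 and 49 UMIs), and Sesn2, a sestrin, at 3.54 and 6.59 CPM (ratio 1.86). Bcl6, a transcriptional repressor, was lower there, at 161 and 94.0 CPM (ratio 0.583). Bbc3 had ratios of 2.4 in TCR-signalled-like and 2.19 in mature SP-like cells. These genes were chosen after their values were seen, with 1 library a group and no test.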
